A study of Homo sapiens with 6 samples.

Results

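The genes described here build the ribosome in the nucleolus: subunits and initiation factors of RNA polymerase I, core proteins of the small nucleolar ribonucleoproteins (snoRNPs), abundant nucleolar proteins, and assembly factors of the small and the large ribosomal subunit. The list was drawn up by name from known function, and a gene counted as measured where at least 1 probe set of the array named that gene and no other. Of the 54 genes listed, 53 were measured among 18132 genes in all: 11 of 11 for RNA polymerase I, 7 of 7 for snoRNP cores, 4 of 4 nucleolar proteins, 18 of 18 small-subunit factors and 13 of 14 large-subunit factors. GNL3, which encodes nucleostemin, had no single-gene probe set in the table used and was not analysed here.

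Expression was measured on Affymetrix arrays of total RNA from cells labelled HCT116, a human colorectal carcinoma line, with 3 arrays labelled CSF3 and 3 labelled control (Ctrl). CSF3 encodes granulocyte colony-stimulating factor, and the labels do not say how it was delivered, at what dose or for how long, or what the control cells received. The labels name no separate cultures, so p-values measure only the spread between these arrays, which may be technical. Values are log2 signals as deposited, and a change is the CSF3 mean minus the Ctrl mean on that scale.

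RNA polymerase I transcribes the ribosomal DNA into a single long precursor, which starts when the factor UBF and the complex SL1 sit on the promoter and RRN3 brings the polymerase to it. The small subunit processome and the box C/D and box H/ACA snoRNPs then fold, modify and cut this precursor, and later factors carry the separate subunits to the cytoplasm. In colorectal tumours, as in other fast-growing tissue, this pathway is known to be raised, and MYC is a well-known activator of its genes.

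CSF3 itself read 5.96 ± 0.04 on the CSF3 arrays and 4.83 ± 0.30 on the Ctrl arrays (SD, n = 3 each; limma change 1.12 ± 0.14 SE, adjusted p = 0.000371), which matches the group labels. Pearson's r over all genes was 0.995 within the CSF3 group, 0.998 to 0.999 within the Ctrl group and 0.974 to 0.978 between the groups. Of 7 epithelial markers, KRT18 averaged 7.48 on the CSF3 arrays and 7.26 on the Ctrl arrays and KRT8 averaged 5.06 and 6.37, but the 5 others were dim on arrays of both groups. EPCAM averaged 3.30 on the CSF3 arrays and 3.63 on the Ctrl arrays, and CDH1 averaged 2.24 and 2.20, on their brightest probe sets. Of 11 markers of blood cells, endothelium and fibroblasts, CD68 was bright in both groups, at 9.82 on the CSF3 arrays and 10.11 on the Ctrl arrays, and the other 10 averaged at most 4.41 and 3.85. These signals go against the epithelial label in part, so the cells are called by their label only, and the part of this in the results was not tested.

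Across all genes, 45.4% were called higher and 27.1% lower on the CSF3 arrays by limma at an adjusted p under 0.05, so a call by itself sets no gene apart. The shift depended on signal: the median change was 0.31 among genes below the median signal and -0.13 in the rest. The ribosome biogenesis genes sat in the bright range, 50 of 53 above the median signal of all genes. For GAPDH the 3′ signal minus the 5′ signal, a sign of RNA integrity and labelling, was 0.682 ± 0.003 on the CSF3 arrays and 0.306 ± 0.007 on the Ctrl arrays (SD, n = 3 each; exact permutation p = 0.1, the smallest that 3 against 3 arrays allow). That of ACTB was 1.94 ± 0.02 and 1.34 ± 0.03, and the median of 18 hybridisation controls was 8.36 ± 0.05 and 6.82 ± 0.07, in the same order of groups and with the same exact permutation p of 0.1. The part of these differences in the results below was not tested.

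Among the 53 genes, 13 rose, 31 fell and 9 were not called, with a median change of -0.21. By comparison, of 3950 genes with a signal between the lower and upper quartile of these genes (5.92 to 7.88), 21.6% rose and 52.8% fell, with a median change of -0.19. These genes are called equally bright, or as bright as the 53, below. The list's shares of 24.5% higher and 58.5% lower therefore lay near theirs, and its overall fall is not a result about ribosome biogenesis. The range leaves out the dimmest and the brightest of the 53 genes, whose signals ran from 1.99 to 11.05. Around signals of 3.80 and 9.43 the median change of all genes was 0.29 and -0.04. After quantile normalization of the deposited values, 18 of the 53 genes were higher and 20 lower with a median of 0.00, against 40.2% higher and 32.4% lower among the equally bright genes and 39.2% and 20.1% among all genes. Cyclic loess gave 19 higher and 19 lower with a median of -0.02, against 39.5% higher and 32.8% lower among the equally bright genes and 36.3% and 21.4% among all genes. Under the deposited, the quantile and the loess values alike, 13 genes (24.5%) were called higher and 18 (34.0%) lower. Of the equally bright genes 21.6% and 31.9% met the same condition, and of all genes 29.1% and 18.4%, so these shares also lay near those of equally bright genes. The values below therefore describe single genes.

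**Figure D1:**
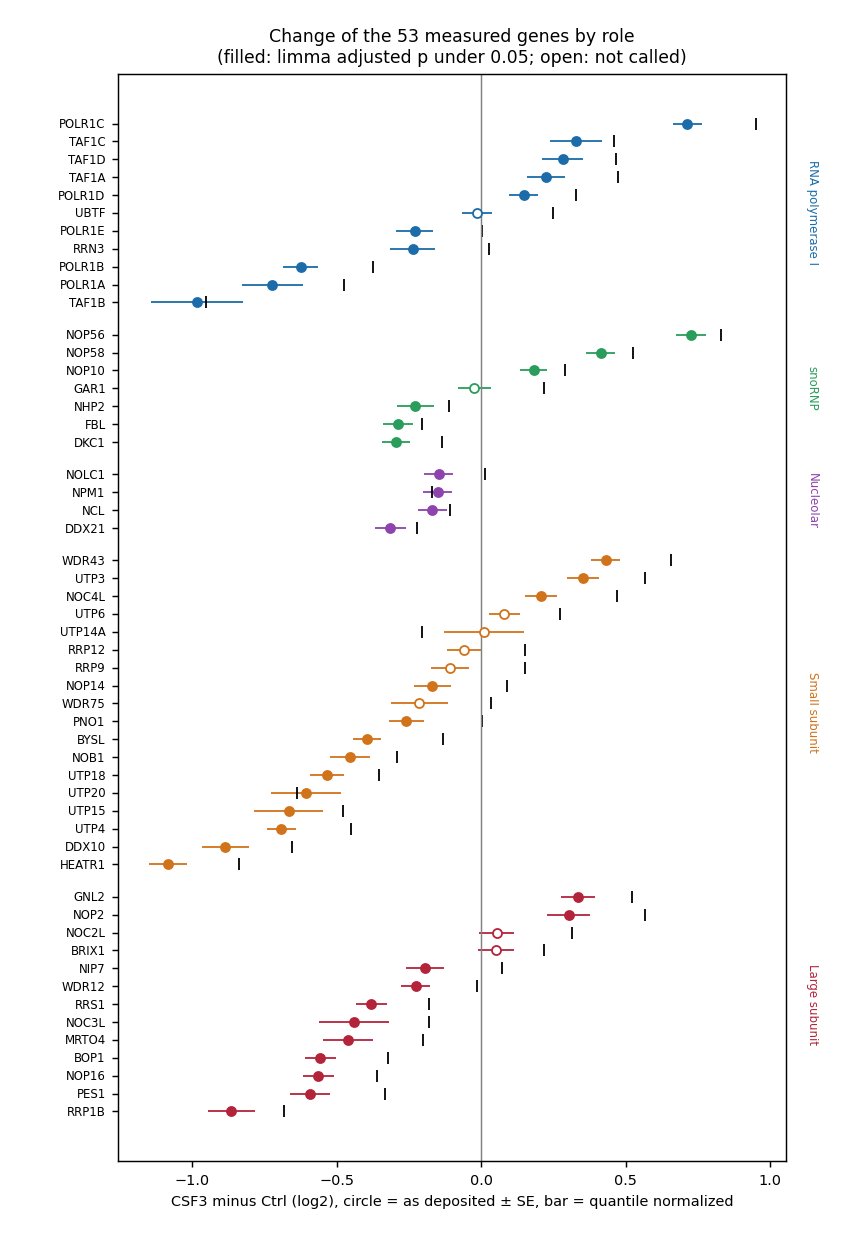
Change of each of the 53 genes by role, as CSF3 minus Ctrl on the log2 scale. Circles give the deposited values with their limma standard error, filled where the adjusted p is under 0.05, and short bars give the value after quantile normalization; POLR1C and NOP56 stand farthest to the right and HEATR1 farthest to the left.

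The groups did not overlap for any of the 44 genes called, and they overlapped for 8 of the other 9. Of all genes, 76.2% had groups that did not overlap, and 70.8% were both called and free of overlap. On the brightest probe sets as deposited, only HEATR1 differed by 2-fold or more among the 53 genes. Dimmer probe sets of NOP14 (-1.14) and WDR12 (1.02) did so too. After loess normalization HEATR1 changed by -0.85 and TAF1B by -1.03. Standard errors of the called genes lay between 0.048 and 0.16, and the median SD was 0.066 over the CSF3 arrays and 0.040 over the Ctrl arrays.

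RNA polymerase I genes were evenly split: 5 rose, 5 fell and UBTF did not pass the test, with a median change of -0.01 that became 0.25 after quantile and 0.20 after loess normalization. Among the 5 subunits of the enzyme, POLR1C and POLR1D rose and POLR1A, POLR1B and POLR1E fell. Among the TAF1 subunits of SL1, the promoter selectivity factor, TAF1A, TAF1C and TAF1D rose and TAF1B fell. Of equally bright genes 21.6% rose and 52.8% fell as deposited. The RNA polymerase I counts were not tested against these shares.

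POLR1C encodes a subunit that RNA polymerases I and III share. It read 7.20, 7.20 and 7.15 on the CSF3 arrays, against 6.49, 6.49 and 6.43 on the Ctrl arrays. All CSF3 arrays lay well above all Ctrl arrays, a 1.64-fold rise (0.71 ± 0.05 SE, limma adjusted p = 3.69e-05) that was 0.95 after quantile normalization. Of its other probe sets, 1 rose by 0.57 and 1, nearly as bright, changed by -0.06 and was not called, and the mean of its probe sets was 0.41. POLR1D, which encodes the other subunit shared with RNA polymerase III that was listed here, read 7.95, 7.89 and 7.89 on the CSF3 arrays and 7.78, 7.76 and 7.74 on the Ctrl arrays. Its groups lay close but apart (0.15 ± 0.05, limma adjusted p = 0.0309), and another of its probe sets fell by 0.25.

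POLR1A encodes the largest subunit of RNA polymerase I, which forms the catalytic centre together with POLR1B. It read 5.44, 5.13 and 5.19 on the CSF3 arrays, against 5.87, 6.15 and 5.90 on the Ctrl arrays. Every CSF3 array was below every Ctrl array, a 1.65-fold fall (-0.72 ± 0.11, limma adjusted p = 0.000829), and its other probe set changed by -0.93. POLR1B read 6.27, 6.14 and 6.10 on the CSF3 arrays and 6.81, 6.80 and 6.78 on the Ctrl arrays. This fall of -0.62 ± 0.06 (limma adjusted p = 0.000122) was shared by all 6 of its probe sets, which ranged from -0.96 to -0.43, and was -0.38 after quantile normalization. Both subunits of the catalytic centre thus read lower while the shared subunit POLR1C read higher.

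POLR1E, a subunit specific to RNA polymerase I, read 6.63, 6.63 and 6.78 on the CSF3 arrays and 6.92, 6.95 and 6.86 on the Ctrl arrays. It fell by 0.23 ± 0.06 as deposited (limma adjusted p = 0.013), and its difference was 0.00 after quantile and after loess normalization. All 3 of its probe sets were called lower as deposited, the others at -0.50 and -0.91, and the mean of its probe sets was -0.55 (limma adjusted p = 4.39e-05). RRN3, which links the polymerase to the promoter, read 5.87, 5.64 and 5.73 on the CSF3 arrays and 6.05, 5.88 and 6.02 on the Ctrl arrays. Its groups nearly touched; the change of -0.24 ± 0.08 (limma adjusted p = 0.0285) was 0.03 after quantile normalization and was not called there, while all 3 of its probe sets were called lower as deposited. UBTF, which encodes UBF, read 5.75, 5.78 and 5.75 on the CSF3 arrays and 5.83, 5.75 and 5.74 on the Ctrl arrays. Its groups overlapped as deposited, and it was called higher after quantile (0.25, limma adjusted p = 0.00496) and loess normalization (0.20, limma adjusted p = 0.0119).

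TAF1B, an SL1 subunit that resembles a basal transcription factor of RNA polymerase II, read 3.37, 3.22 and 3.89 on the CSF3 arrays, against 4.46, 4.50 and 4.46 on the Ctrl arrays. The third CSF3 array stood above the other CSF3 arrays but below all Ctrl arrays, and the gene fell 1.98-fold (-0.98 ± 0.16, limma adjusted p = 0.00127). The change was -0.95 after quantile and -1.03 after loess normalization. Its other probe sets changed less, by -0.26 (called lower) and -0.14 (not called), and the mean of its probe sets was -0.46. TAF1C, another SL1 subunit, read 4.58, 4.52 and 4.86 on the CSF3 arrays and 4.33, 4.35 and 4.30 on the Ctrl arrays. It rose 1.26-fold without overlap (0.33 ± 0.09, limma adjusted p = 0.0134), but of its dimmer probe sets 1 fell by 0.32 and 2 were not called (-0.21 and 0.18). TAF1D rose by 0.28 and TAF1A by 0.22, and both were higher after quantile normalization too, by 0.47 each.

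**Figure D2:**
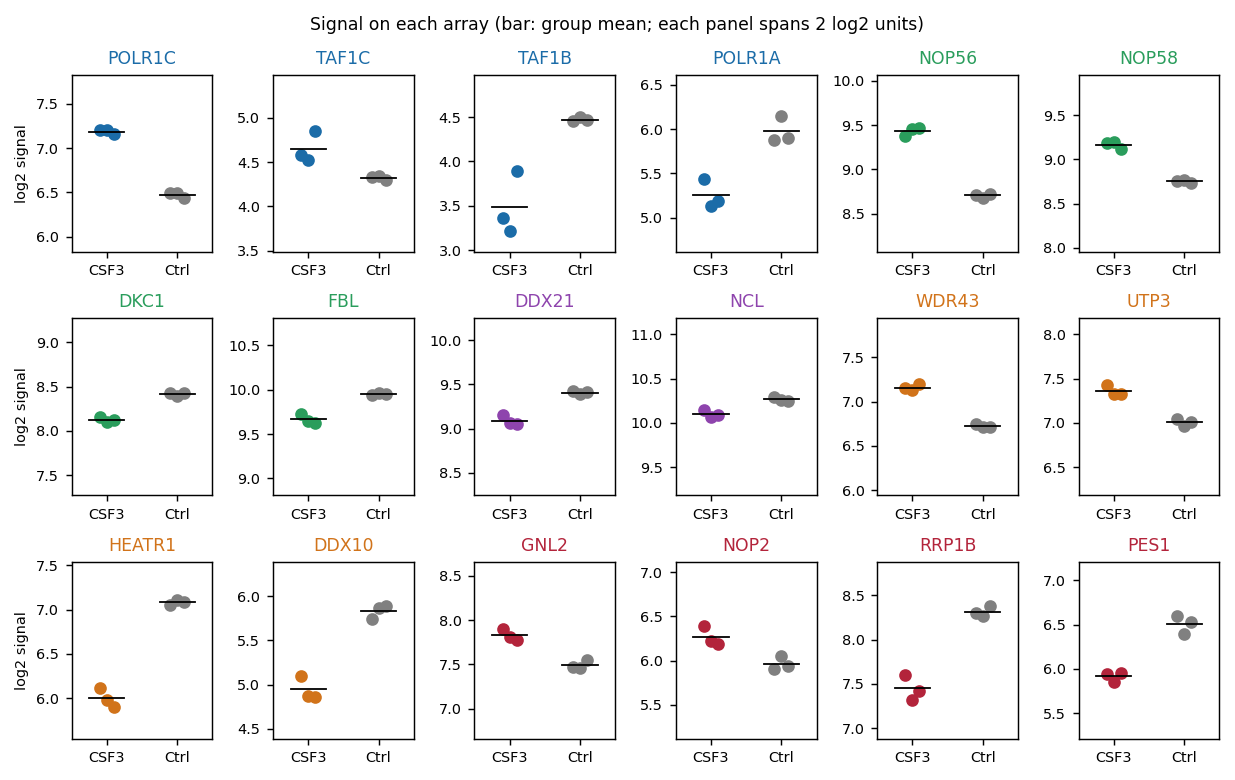
Log2 signal of 18 genes on each array, 3 CSF3 arrays at the left and 3 Ctrl arrays (grey) at the right of each panel, with bars at the group means. Each panel spans 2 log2 units; the groups do not overlap in any of the 18 panels, and HEATR1 and TAF1B have the largest differences between the means.

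Upstream sequence motifs were found in genes of both directions. POLR1C, which rose, and POLR1B, which fell, hold the same letters of an ETS factor site, and NOP10, which rose, and UTP4, which fell, hold these and an E-box, the element MYC is known to bind. Shown are the 250 bases before each start, from RefSeq on GRCh38.p14, on the strand of the gene, with matches to CCGGAAGT or CACGTG on either strand in capitals.
POLR1C, chr6:43516839-43517088, plus strand: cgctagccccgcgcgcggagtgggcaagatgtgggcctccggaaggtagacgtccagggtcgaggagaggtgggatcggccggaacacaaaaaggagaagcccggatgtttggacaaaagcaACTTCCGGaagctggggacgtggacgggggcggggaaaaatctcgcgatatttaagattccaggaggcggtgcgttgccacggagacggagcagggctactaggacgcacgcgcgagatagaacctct
POLR1B, chr2:112542215-112542464, plus strand: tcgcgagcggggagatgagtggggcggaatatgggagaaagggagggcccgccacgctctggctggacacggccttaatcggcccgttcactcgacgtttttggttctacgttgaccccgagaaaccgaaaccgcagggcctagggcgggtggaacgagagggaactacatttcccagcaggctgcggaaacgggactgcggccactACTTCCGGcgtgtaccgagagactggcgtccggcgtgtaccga
NOP10, chr15:34343137-34343386, minus strand: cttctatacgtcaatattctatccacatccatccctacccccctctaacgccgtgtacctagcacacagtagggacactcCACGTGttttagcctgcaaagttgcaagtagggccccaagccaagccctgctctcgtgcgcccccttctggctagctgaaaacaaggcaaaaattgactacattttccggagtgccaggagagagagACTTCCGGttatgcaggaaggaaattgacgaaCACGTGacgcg
UTP4, chr16:69132399-69132648, plus strand: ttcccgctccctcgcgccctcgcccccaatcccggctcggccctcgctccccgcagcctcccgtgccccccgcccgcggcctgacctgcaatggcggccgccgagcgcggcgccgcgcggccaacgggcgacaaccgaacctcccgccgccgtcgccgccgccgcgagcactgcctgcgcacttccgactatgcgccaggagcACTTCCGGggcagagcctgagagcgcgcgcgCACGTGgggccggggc

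The ETS letters start 128 bases before the start in POLR1C and 43 bases before it in POLR1B. Upstream sequences were found for 47 of the 54 genes listed. A gene was counted where any of its listed starts had the letters, and the first start with CCGGAAGT is shown above. CCGGAAGT was present in 9 of these 47 (19.15%), against 4.13% of 27305 genes with an upstream sequence. The 27305 genes were not matched to the list by signal, and the shares were not tested. Of the 9 genes 2 rose (POLR1C and NOP10), 5 fell and 2 did not pass the test. CACGTG, whose reverse complement is itself, was present in 6 of 47, against 7.73% of all genes: NOP10 rose, DDX21, UTP4, UTP18 and UTP20 fell, and UTP14A did not pass the test. None of these motifs contains another, and a match is a description of letters only.

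Of the 7 snoRNP core genes 3 rose, 3 fell and GAR1 did not pass the test, with a median change of -0.02 that was 0.22 after quantile and 0.21 after loess normalization. Of the proteins of box C/D particles, whose RNAs guide methylation of the precursor, NOP56 and NOP58 rose and the methyltransferase fibrillarin (FBL) fell. Of the proteins of box H/ACA particles, whose RNAs guide pseudouridylation, NOP10 rose and DKC1 and NHP2 fell. The snoRNP genes had a median signal percentile of 97.5, above the quartile range in which 21.6% of genes rose and 52.8% fell. Their counts were not tested against these shares.

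NOP56 is a scaffold of the box C/D particle. It read 9.38, 9.46 and 9.47 on the CSF3 arrays, against 8.71, 8.68 and 8.73 on the Ctrl arrays. The groups were far apart (1.65-fold, 0.73 ± 0.05, limma adjusted p = 3.9e-05), and all 4 probe sets rose, by 0.59 to 0.74. NOP58, its partner, read 9.18, 9.19 and 9.11 on the CSF3 arrays and 8.75, 8.77 and 8.73 on the Ctrl arrays, again without overlap (1.33-fold, 0.41 ± 0.05, limma adjusted p = 0.000371). Its other probe set fell by 0.45, so NOP58 has no settled direction. The 4 probe sets of NOP56 go the same way, but all have names ending in _x_at or _s_at, a kind that can hybridise with more than 1 transcript.

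FBL read 9.73, 9.64 and 9.63 on the CSF3 arrays, against 9.94, 9.97 and 9.96 on the Ctrl arrays. All CSF3 arrays were lower (1.22-fold, -0.29 ± 0.05, limma adjusted p = 0.00221), and the change was -0.21 after quantile normalization. DKC1, the pseudouridine synthase dyskerin, read 8.16, 8.10 and 8.12 on the CSF3 arrays and 8.43, 8.40 and 8.43 on the Ctrl arrays. It fell by 0.29 ± 0.05 without overlap (limma adjusted p = 0.00142), and its call was lost after loess normalization (-0.12, limma adjusted p = 0.0622). NOP10 read 9.17, 9.20 and 9.15 on the CSF3 arrays and 9.01, 8.97 and 8.99 on the Ctrl arrays, a small rise without overlap (0.18 ± 0.05, limma adjusted p = 0.0119). NHP2 changed by -0.23 as deposited and by -0.11 after quantile normalization, where it was not called. GAR1 has no settled direction: it changed by -0.02 as deposited and was called higher by 0.22 after quantile normalization, while its other probe set fell by 0.47 and the mean of its probe sets was called lower (-0.25, limma adjusted p = 0.00254).

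The 4 nucleolar genes all fell, with a median change of -0.16. They are brighter than the quartile range in which 52.8% of genes fell, and 3 of the 4 lay inside the quartiles of change of all genes at their own signal. DDX21, an RNA helicase that links transcription and processing of the precursor, read 9.15, 9.06 and 9.06 on the CSF3 arrays, against 9.42, 9.39 and 9.41 on the Ctrl arrays. The groups were apart (1.24-fold lower, -0.31 ± 0.05, limma adjusted p = 0.00148), all 3 probe sets were lower, and the fall held after quantile (-0.22) and loess normalization (-0.18). NCL encodes nucleolin, a histone chaperone and RNA-binding protein of the nucleolus. It read 10.14, 10.07 and 10.09 on the CSF3 arrays and 10.29, 10.26 and 10.25 on the Ctrl arrays, a small gap (-0.17 ± 0.05, limma adjusted p = 0.019) that was not called after quantile (-0.11) or loess normalization (-0.09). The fall of NPM1, nucleophosmin, was 0.15 as deposited and was not called after loess normalization. NOLC1, a chaperone of snoRNPs, fell by 0.15 on its brightest probe set, while its 2 other probe sets rose by 0.44 and 0.38.

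Of the 18 small-subunit factors 3 rose, 10 fell and 5 were not called, with a median change of -0.24 as deposited, -0.06 after quantile and -0.10 after loess normalization. In the UTP-A subcomplex, which binds the start of the nascent precursor, HEATR1, UTP4 and UTP15 fell, WDR43 rose and WDR75 did not pass the test. Of equally bright genes 21.6% rose and 52.8% fell as deposited. The small-subunit and UTP-A counts were not tested against these shares.

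HEATR1, a large UTP-A protein also known to be needed for RNA polymerase I transcription, read 6.11, 5.99 and 5.90 on the CSF3 arrays, against 7.05, 7.11 and 7.08 on the Ctrl arrays. No CSF3 array came near a Ctrl array, and this 2.12-fold fall (-1.08 ± 0.07, limma adjusted p = 2.27e-05) was the largest among the brightest probe sets of the 53 genes as deposited. After quantile and loess normalization it was -0.84 and -0.85, smaller than the changes of TAF1B. A second probe set fell by 0.46, 2 dim ones were not called, and the mean of its probe sets was -0.38. UTP4 read 6.35, 6.31 and 6.29 on the CSF3 arrays and 7.04, 6.97 and 7.01 on the Ctrl arrays, a 1.62-fold fall without overlap (-0.69 ± 0.05, limma adjusted p = 4.15e-05) on its sole probe set. WDR43 read 7.15, 7.13 and 7.19 on the CSF3 arrays and 6.75, 6.71 and 6.72 on the Ctrl arrays. Its rise (1.35-fold, 0.43 ± 0.05, limma adjusted p = 0.000268) was opposed by its other probe set, which fell by 0.48. Within UTP-A, HEATR1, UTP4 and UTP15 were called lower as deposited and after both normalizations. Of their probe sets, 2 of 4 for HEATR1 and 2 of 3 for UTP15 were called lower and none higher, while UTP4 has 1.

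DDX10 is a helicase of the same early particle. It read 5.10, 4.88 and 4.86 on the CSF3 arrays, against 5.74, 5.87 and 5.88 on the Ctrl arrays. The groups were well apart (1.85-fold lower, -0.89 ± 0.08, limma adjusted p = 9.84e-05), and the change was -0.66 after quantile normalization. UTP3, which associates with U3 snoRNA particles, went the other way, with 7.43, 7.33 and 7.32 on the CSF3 arrays and 7.04, 6.96 and 7.01 on the Ctrl arrays. Its 2 probe sets both rose without overlap on the brighter one (1.28-fold, 0.35 ± 0.06, limma adjusted p = 0.00117). NOC4L, a partner of NOP14, rose by 0.21 (limma adjusted p = 0.0119), a call lost without the third Ctrl array (0.19, limma adjusted p = 0.0504).

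NOB1, the nuclease that makes the final cut of the small-subunit rRNA, read 8.19, 7.99 and 7.99 on the CSF3 arrays and 8.50, 8.55 and 8.47 on the Ctrl arrays. It fell without overlap (-0.46 ± 0.07, limma adjusted p = 0.000968) and by 0.29 after quantile normalization. PNO1, its binding partner, changed by -0.26 as deposited and by 0.00 after quantile normalization, where it was not called. BYSL fell by 0.39 on its brightest probe set, whereas its 2 very dim probe sets rose by 0.31 and 0.42. UTP18 (-0.53), UTP15 (-0.67) and UTP20 (-0.61) fell, and these falls held after both normalizations; with the mean of its probe sets UTP15 changed by -0.38. NOP14 changed by -0.17 (limma adjusted p = 0.043) on its brightest probe set and by 0.09 after quantile normalization, where it was not called. Its 2 other probe sets fell by more (-0.52 and -1.14), and the mean of its probe sets was -0.61 (limma adjusted p = 0.000219). UTP6, RRP12, RRP9, WDR75 and UTP14A were not called as deposited, with changes from -0.21 to 0.08. UTP14A averaged only 1.99 on the CSF3 arrays and 1.98 on the Ctrl arrays, where a dim and an absent transcript look alike. UTP6 was called higher after quantile normalization (0.27), although its other probe set fell by 0.73. The other probe set of WDR75 fell by 0.47.

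**Figure D3:**
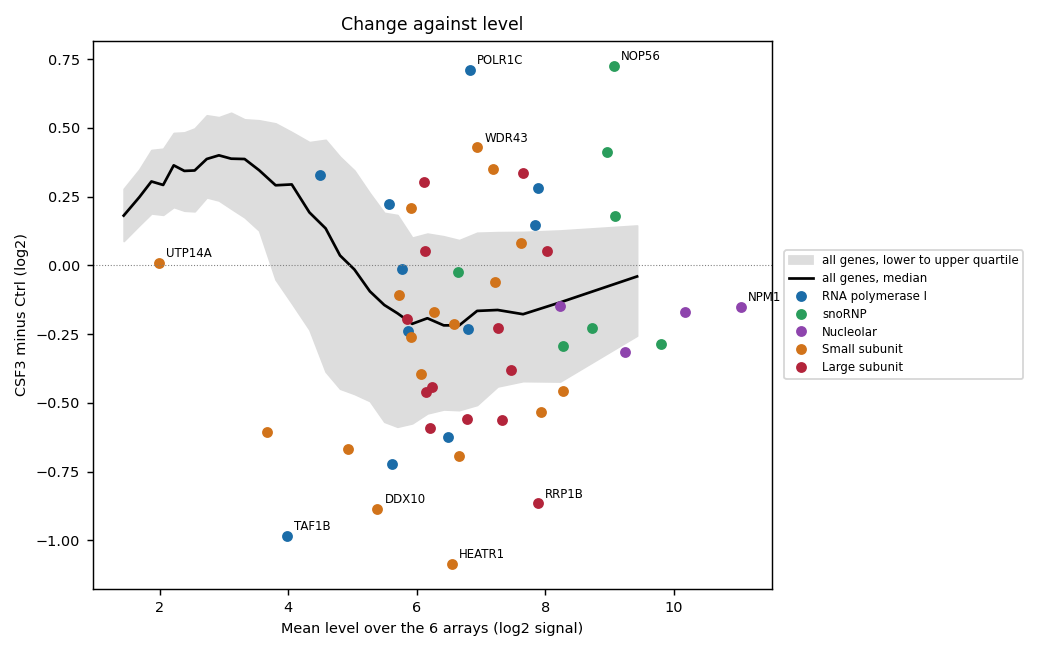
Change (CSF3 minus Ctrl, log2) of each gene against its mean log2 signal over the 6 arrays, coloured by role. The line and the grey band give the median and the lower to upper quartile of all genes at that signal; 12 of the 53 genes lie above the band, 17 below it and 24 inside it.

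Of the 13 large-subunit factors measured 2 rose, 9 fell and 2 were not called, with a median change of -0.38 as deposited, -0.18 after quantile and -0.17 after loess normalization. The PeBoW complex is made of PES1, BOP1 and WDR12 and is needed for processing of the large-subunit rRNA. Its genes were lower in 3 of 3 cases as deposited and in 2 of 3 after quantile normalization. Of equally bright genes 21.6% rose and 52.8% fell as deposited, and 32.4% were lower after quantile normalization. The large-subunit and PeBoW counts were not tested against these shares.

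PES1 (pescadillo) read 5.94, 5.85 and 5.95 on the CSF3 arrays, against 6.60, 6.39 and 6.53 on the Ctrl arrays. All CSF3 arrays were lower (1.51-fold, -0.59 ± 0.07, limma adjusted p = 0.000286), and the fall was 0.33 after quantile normalization. BOP1 read 6.53, 6.52 and 6.48 on the CSF3 arrays and 7.11, 7.09 and 7.01 on the Ctrl arrays, a 1.47-fold fall without overlap (-0.56 ± 0.05, limma adjusted p = 0.000118). WDR12 did not hold with its partners: its brightest probe sets fell by 0.23 and 0.38, its dimmest rose by 1.02, and the change was -0.02 after quantile normalization and not called. PES1 and BOP1 have 1 probe set each.

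RRP1B, a nucleolar partner of protein phosphatase 1, read 7.61, 7.32 and 7.42 on the CSF3 arrays, against 8.30, 8.26 and 8.38 on the Ctrl arrays. Its brightest probe set, of a kind that can hybridise with more than 1 transcript, fell 1.82-fold without overlap (-0.86 ± 0.08, limma adjusted p = 0.000114), and its other probe set rose by 0.26, with a mean over both of -0.30. GNL2, a GTPase that acts on the nuclear large-subunit particle, read 7.90, 7.80 and 7.78 on the CSF3 arrays and 7.48, 7.46 and 7.55 on the Ctrl arrays. It rose without overlap (0.34 ± 0.06, limma adjusted p = 0.00172), and its other probe set, of similar brightness, fell by 0.20. Neither gene has a settled direction.

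NOP2, an rRNA methyltransferase known as a proliferation antigen, read 6.39, 6.22 and 6.19 on the CSF3 arrays and 5.90, 6.06 and 5.94 on the Ctrl arrays. The lowest CSF3 array stood just above the highest Ctrl array, and the rise (0.30 ± 0.07, limma adjusted p = 0.00843) was seen on 3 of 3 probe sets and was 0.57 after quantile normalization. RRS1, which helps place the 5S particle, fell by 0.38 and held after both normalizations. NOP16 fell by 0.56 on its brightest probe set (mean signal 7.32) and rose by 0.57 on its dimmest. Its other probe set, at 6.94, changed by -0.02 and was not called. The mean of its probe sets changed by -0.0049 and was not called, so NOP16 has no settled direction. MRTO4, which holds the place of the stalk protein, fell by 0.46 on its brighter probe set and rose by 0.22 on the other, and after quantile normalization it was not called (-0.20). NOC3L and NIP7 changed by -0.44 and -0.20 and were called under neither normalization. NOC2L and BRIX1, each with a change of 0.05, were not called as deposited and were called higher after quantile normalization, by 0.31 and 0.22, although the other, dim probe set of NOC2L fell by 0.59.

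Probe sets of a gene often disagreed. Of the 40 genes with more than 1 probe set, 11 had probe sets called in opposite directions, which is 27.5%, against 14.5% of all genes with several. These shares were matched for neither signal nor number of probe sets. Some opposed probe sets were dim, such as those of BYSL (1.79 and 1.73), NOP16 (2.55) and MRTO4 (3.80), where all genes shifted upward. Others were bright, such as those of GNL2 (7.40) and NOP58 (6.83). The part of signal in the difference was not tested. The 11 genes were BYSL, GNL2, MRTO4, NOLC1, NOP16, NOP58, POLR1D, RRP1B, TAF1C, WDR12 and WDR43. Over all 130 probe sets of the list 31 were higher, 68 lower and 31 not called. Of all single-gene probe sets 36.7% were higher and 28.8% lower, a share not matched for signal. Of equally bright genes 52.8% fell on their brightest probe set, so these counts are no result about the list.

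**Figure D4:**
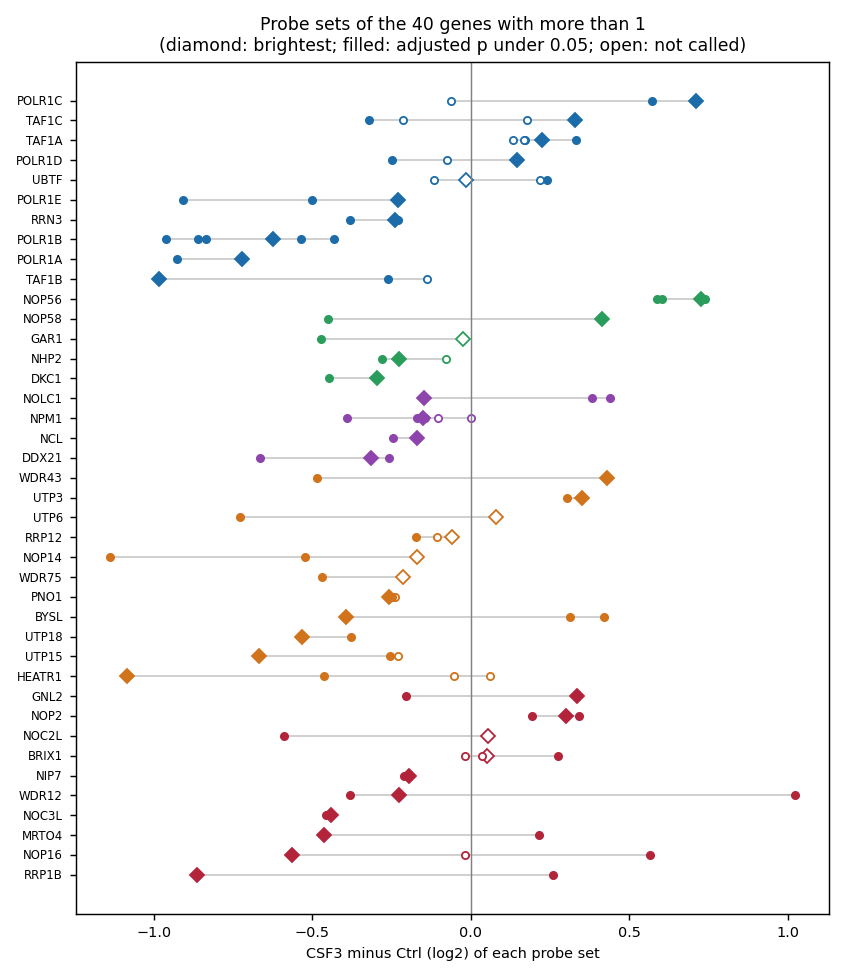
Change (CSF3 minus Ctrl, log2) of every probe set of the 40 genes with more than 1, with the brightest as a diamond; filled symbols have an adjusted p under 0.05 in a limma fit over all single-gene probe sets, in which the brightest probe set of NOP14 was not called. The 6 probe sets of POLR1B all lie left of 0 and the 4 of NOP56 all lie right of it, while those of 11 genes are called on both sides.

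The calls that held under all 3 scalings and on every probe set of the gene were 6 rises (11.3% of the 53 genes) and 12 falls (22.6%). Of the equally bright genes 9.42% rose and 18.1% fell by this condition, and of all genes 17.3% rose and 9.68% fell, so the counts lay near those of equally bright genes. The falls were those of POLR1A, POLR1B, FBL, DDX21, UTP4, UTP18, UTP20, NOB1, DDX10, BOP1, PES1 and RRS1, and the rises those of TAF1D, NOP56, NOP10, UTP3, NOC4L and NOP2. They include genes of each role on the side of the falls, and of each role but the 4 nucleolar genes on the side of the rises. Of the 18 genes, 3 that rose and 8 that fell have 1 probe set, for which agreement between probe sets cannot be shown. Every probe set of NOP56, TAF1D and NOB1 has a name ending in _x_at or _s_at, a kind that can hybridise with more than 1 transcript. So do the brightest probe sets of 20 of the 53 genes.

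The array also carries probe sets for the mature ribosomal RNAs, the product of the pathway, which were taken up after their names had been seen. The 28S probe set at the 5′ end read 11.92, 11.94 and 11.93 on the CSF3 arrays, against 10.08, 9.86 and 10.09 on the Ctrl arrays. The groups were far apart, a 3.78-fold difference (1.92). The middle 28S probe set was higher by 2.32 and the 3′ one by 0.97, each without overlap and each with an exact permutation p of 0.1, the smallest this design allows. The 18S rRNA went no such way: its 5′ probe set averaged 9.55 ± 0.41 on the CSF3 arrays and 10.4 ± 0.20 on the Ctrl arrays (SD, n = 3 each; exact permutation p = 0.1). The middle 18S probe set differed by 0.17 and the 3′ one by 0.25, with overlapping groups (exact permutation p = 0.4 and 0.3). The hybridisation controls, which are no product of the cells, were higher by 1.53 on the same arrays. The labels do not say how these RNAs were primed for labelling, and the part of labelling in these differences was not tested.

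**Figure D5:**
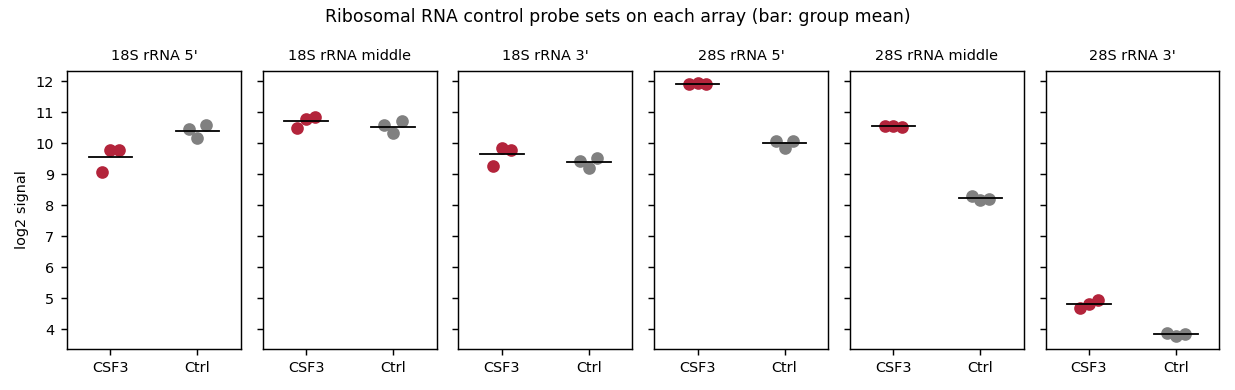
Log2 signal of the 18S and 28S ribosomal RNA control probe sets (5′, middle and 3′) on each array, 3 CSF3 arrays at the left (red) and 3 Ctrl arrays at the right (grey) of each panel, with bars at the group means. The 28S probe sets are higher on every CSF3 array, by 0.97 to 2.32, and the 18S probe sets are not.

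Genes of the pathway outside the 53 also moved in both directions. Their lists had median signal percentiles of 78.4 to 90.1. Of the genes as bright as the 53, 21.6% rose and 52.8% fell as deposited, and 40.2% were higher and 32.4% lower after quantile normalization. Of all genes 45.4% rose and 27.1% fell as deposited. The lists were not tested against these shares. Of 115 further ribosome biogenesis genes 110 were measured, of which 21 rose and 48 fell, with a median of -0.12 that was 0.08 after quantile normalization. Of 12 further RNA polymerase I genes 7 rose, 1 fell and 4 were not called, and 11 of 12 were higher after quantile normalization. POLR1F, a stalk subunit of the polymerase, rose by 0.52 and TTF1, which ends its transcription, by 0.36, while BAZ2A, a silencer of ribosomal DNA, fell by 0.20.

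Of 36 further small-subunit factors 5 rose and 19 fell, among them ESF1 (0.65), EMG1 (0.43), WDR3 (-0.92) and UTP23 (-0.72). Of 39 further large-subunit factors 7 rose and 15 fell. MDN1, the giant ATPase that strips factors from the large-subunit particle, fell by 1.05 and URB1 by 1.08, while RPF2 rose by 0.33 and NIFK by 0.26. Of 10 snoRNP assembly genes 2 rose and 6 fell: SNU13, which binds box C/D RNA, rose by 0.45 and NUFIP1 by 0.62, and RUVBL1, an ATPase of the assembly chaperone, fell by 1.18 and RPAP3 by 0.56. Of 13 exosome genes, which trim and degrade the precursor's spacers, 0 rose by limma (0 also at an unadjusted p under 0.05) and 7 fell as deposited. Among the falls were MTREX (-0.97) and EXOSC5 (-0.76). After quantile normalization 6 were higher and 4 lower. Of the genes as bright as the 53, 21.6% rose and 52.8% fell as deposited, and 40.2% were higher and 32.4% lower after quantile normalization.

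The ribosomal proteins themselves changed little in signal, but they lie at the top of the range, with a median signal percentile of 99.8. Their median signal was 11.67 on the CSF3 arrays and 11.63 on the Ctrl arrays. Changes of all genes were also small among the brightest, with quartiles of -0.25 and 0.15 around a signal of 9.43. Whether changes are compressed at such signals was not tested. Among 64 measured there were 15 rises and 7 falls, with a median change of 0.03, and the 4 named by p-value were RPS20 (0.31), RPL34 (0.29), RPL3 (-0.31) and RPS2 (-0.23). Of 17 genes of RNA polymerase III, which makes the 5S rRNA, 2 rose and 10 fell, with GTF3C4 at 0.64, POLR3K at 0.22, BDP1 at -1.03 and GTF3C2 at -0.74. After quantile normalization 6 of these 17 genes were higher and 7 lower. Of the genes as bright as the 53, 21.6% rose and 52.8% fell as deposited, and 40.2% were higher and 32.4% lower after quantile normalization.

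MYC averaged 9.04 ± 0.03 on the CSF3 arrays and 9.39 ± 0.05 on the Ctrl arrays (SD, n = 3 each), a fall of 0.35 ± 0.05 (limma adjusted p = 0.000881). Of the 12 genes of its network 0 rose (0 also at an unadjusted p under 0.05) and 8 fell by limma as deposited. After quantile normalization 2 were higher and 5 lower. The median signal percentile of these 12 genes was 74.0. Of the genes as bright as the 53, 21.6% rose and 52.8% fell as deposited, and 40.2% were higher and 32.4% lower after quantile normalization. The network was not tested against these shares. MYCL fell by 1.26 and MGA, a repressor that pairs with MAX, by 0.59.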

How the data were processed

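Biotin-labelled total RNA from cells labelled HCT116 was read on 6 Affymetrix arrays, 3 CSF3 and 3 Ctrl. The authors deposited 1 value for each of 49395 probe sets on each array, taken here as log2 from their range. Neither the labels nor the table state the log base, background correction, summarisation or normalization between arrays. Folds would change with another base and tests would not. Without detection calls, dim and absent transcripts look alike. Precision is set by the number of arrays.

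Names came from the platform annotation: 44988 probe sets had 1 gene, 1832 several and 2473 none, and 102 were controls. RefSeq on GRCh38.p14 held 44961 of the single-gene ones. The brightest single-gene probe set stood for its gene. CSF3 minus Ctrl was fitted over all 18132 genes with limma 3.58.1 (lmFit, eBayes, no covariates; R 4.3.3), with Benjamini-Hochberg adjustment over all of them and a threshold of 0.05. Array controls were tested by exact two-sided permutation. Upstream sequences came from a RefSeq table.

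The genes, lists and settings were chosen with earlier results of these data known. Every array's value is given for the 2 largest rises and the 2 largest falls of each role among called genes without overlap, and for some further genes chosen after their values were seen. Genes with opposed probe sets, or with calls that changed under quantile or cyclic loess normalization, are described too. Of each other list, the 2 genes of smallest p per direction are named. The alternatives were quantile and cyclic loess normalization, median subtraction, removal of the dimmest 30% of genes, averaging of a gene's probe sets, removal of _x_at and _s_at probe sets, a trended and robust eBayes, weights per array, a replicate block, a minimum change of 1, and omission of each array. Like-brightness genes, ribosomal RNA probe sets and snoRNA genes came in once the data had been seen. Simulated data with 200 changed genes served to test the fit.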

Additional observations from a re-analysis of the deposited data

How the results depend on the processing

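Ribosome biogenesis genes called higher numbered 13 and those called lower 31 as deposited. Quantile normalization left 20 lower and cyclic loess 19, and a change of at least 1 left 0 higher and 1 lower by limma (all genes: 117 higher and 611 lower). With the 30% dimmest genes left out, 4768 of the 12693 genes kept were higher and 4883 lower. The median of the 53 genes was 0.00358 after quantile and -0.0155 after loess normalization. That of RNA polymerase I genes was 0.25 and 0.20, and -0.23 without _x_at and _s_at probe sets. That of snoRNP cores was 0.22 and 0.21, -0.20 with the mean of probe sets and -0.26 without _x_at and _s_at ones. The nucleolar median was -0.11 after loess and -0.32 without these probe sets. The small-subunit median was -0.065 after quantile, -0.10 after loess, -0.33 with the mean of probe sets and -0.43 without _x_at and _s_at ones. The large-subunit median was -0.18, -0.17, -0.20 and -0.11 under the same settings. The cause was not tested.

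Signs turned after quantile normalization for UTP14A (-0.21), POLR1E (0.00358), PNO1 (0.00376), NOLC1 (0.0147), RRN3 (0.0286), WDR75 (0.0327), NIP7 (0.0712), NOP14 (0.0895), RRP12 (0.15), RRP9 (0.15), GAR1 (0.22) and UBTF (0.25). After loess they turned for UTP14A (-0.21), WDR75 (0.0177), NIP7 (0.0262), NOLC1 (0.0334), NOP14 (0.0627), RRP9 (0.11), RRP12 (0.16), UBTF (0.20) and GAR1 (0.21). With the mean of all probe sets they turned for TAF1C (-0.00808), NOP58 (-0.0192), WDR43 (-0.0274), POLR1D (-0.0588), NOC2L (-0.27), UTP6 (-0.32), UBTF (0.0825), BYSL (0.11), WDR12 (0.14) and NOLC1 (0.22). Without _x_at and _s_at probe sets they turned for TAF1C (-0.21), MRTO4 (0.22) and RRP1B (0.26), and with array medians subtracted for UTP14A (-0.0111).

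Leaving out single arrays gave 11 to 13 of the 53 genes higher and 25 to 29 lower, with RNA polymerase I medians of -0.0334 to 0.0161, snoRNP medians of -0.0547 to 0.0034 and large-subunit medians of -0.40 to -0.32. Of 318 such values 282 kept sign and call, 32 lost the call and 4 changed sign. Signs changed for UBTF (-0.0334 to 0.0161; without Ctrl replicate 1), GAR1 (-0.0547 to 0.0034; without CSF3 replicate 2) and UTP14A (-0.13 to 0.14; without CSF3 replicate 3 or Ctrl replicate 2). Calls were lost for NOC4L without Ctrl replicate 3 (0.19), for POLR1E (-0.21) and NHP2 (-0.22) without Ctrl replicate 2, and without Ctrl replicate 1 or 2 for TAF1A (0.21 and 0.20) and NCL (-0.16 and -0.17). POLR1D lost its call without CSF3 replicate 1 or any Ctrl array (0.13 to 0.16), RRN3 without CSF3 replicate 2 or 3 or Ctrl replicate 1 or 3 (-0.23 to -0.18), and NPM1 without CSF3 replicate 2 or any Ctrl array (-0.15 to -0.12). NOLC1 lost it without any array but CSF3 replicate 1 (-0.16 to -0.13), NOP14 without CSF3 replicate 1 or 3 or Ctrl replicate 1 or 3 (-0.18 to -0.13), and NIP7 without CSF3 replicate 1 or 2 or Ctrl replicate 1 or 3 (-0.20 to -0.15).

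The replicate block gave 12 of the 53 genes higher and 27 lower, and 8086 and 4782 of all genes. Same-numbered arrays correlated by 0.027 to 0.038 in their deviations, under the 0.1 needed to treat them as pairs, although every array correlated best with its own number.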

Other observations

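Genes for small nucleolar and Cajal body RNAs, which guide rRNA modification, read higher on the CSF3 arrays, a list added after seeing the data. By limma 38 of 48 rose and 1 fell, against 45.4% of all genes called higher, with a median change of 0.45. Most are dim, with a median signal percentile of 22.6, in a range where all genes shifted upward. The median change was 0.31 among genes below the median signal. Around a signal of 2.54 the median change of all genes was 0.35 and the upper quartile 0.50. The share of 45.4% was not matched for signal, and the list was not tested against it. SNORA72 averaged 6.30 ± 0.11 on the CSF3 arrays and 4.65 ± 0.07 on the Ctrl arrays (SD, n = 3 each), a rise of 1.65 ± 0.07 SE (limma adjusted p = 9.46e-06). SNORA84 averaged 5.55 ± 0.20 and 3.95 ± 0.06 in the same order of groups, a rise of 1.60, and SNORA70C fell by 0.43. After quantile normalization 26 of the 48 were higher and 3 lower, with a median of 0.25, against 39.2% and 20.1% of all genes. The labels do not say how RNAs without a poly-A tail were primed for labelling, and the part of labelling was not tested.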
